A study of Mus musculus with 4 samples.

Results

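The Notch and secretory fate regulators described here are 10 of the 32285 genes in the count tables: the receptor Notch1, the ligands Dll1 and Dll4, the target Hes1, and the transcription factors Atoh1, Gfi1, Spdef, Creb3l1, Neurog3 and Sox4. They were chosen by name, and all 10 were found. Single-cell RNA-seq was made from sorted small intestinal epithelial cells of 25 week old mice. Mutant 1 and mutant 2 carried the TrnA G5081A point mutation in the mitochondrial gene for the alanine tRNA, at a labelled mutation load of 77% and 81%. Wild type 1 and wild type 2 are labelled only as wild type. Mutant 1 and wild type 1 form set A, whose titles give no sex and whose files were made with Cell Ranger 7.0.0. Mutant 2 and wild type 2 form set B, titled male and made with Cell Ranger 7.1.0. No strain is given, no sample label names a colitis treatment although the series title speaks of acute colitis, and no label says that the libraries came from separate animals. The p-values therefore measure only the spread between these libraries.

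In the intestinal crypt, Notch signalling is a contact between neighbouring cells: a ligand such as Dll1 or Dll4 on one cell activates the receptor Notch1 on the next, and the freed receptor fragment works with RBPJ to switch on Hes1. HES1 represses Atoh1, so a cell that receives Notch signal stays a progenitor or becomes an absorptive enterocyte, and a cell that escapes it turns on Atoh1 and enters the secretory lineage. Gfi1, Spdef and Creb3l1 act after that choice in goblet and Paneth cells, whereas Neurog3 commits cells to the enteroendocrine, hormone-secreting fate.

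The sequences before the starts of 3 members are shown. Neurog3 is the member that differed most between genotypes. Of the 8 members searched, Sox4 and Spdef are the 2 whose 250 bases before the start hold TGGGAA, the core letters bound by RBPJ. RefSeq on build GRCm38.p6 gave 10 such windows for these 8 members. Hes1 and Creb3l1 had no window there and were not searched for either motif. Capitals mark TGGGAA (its other strand reads TTCCCA) and CAGCTG, an E-box that reads the same on both strands; the 2 motifs did not overlap. In all, 21.6% of the 32851 RefSeq windows hold TGGGAA and 13% hold CAGCTG. Neurog3 lies at chr10:62132840-62133089 on the plus strand, Sox4 at chr13:28953700-28953949 on the minus strand and Spdef at chr17:27728952-27729201 on the minus strand, each read 5′ to 3′ along its gene.
Neurog3: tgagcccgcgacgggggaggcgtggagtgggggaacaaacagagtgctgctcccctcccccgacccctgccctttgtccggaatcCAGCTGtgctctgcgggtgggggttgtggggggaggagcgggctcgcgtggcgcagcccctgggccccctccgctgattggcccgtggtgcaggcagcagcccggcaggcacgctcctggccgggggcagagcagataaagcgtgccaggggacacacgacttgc
Sox4: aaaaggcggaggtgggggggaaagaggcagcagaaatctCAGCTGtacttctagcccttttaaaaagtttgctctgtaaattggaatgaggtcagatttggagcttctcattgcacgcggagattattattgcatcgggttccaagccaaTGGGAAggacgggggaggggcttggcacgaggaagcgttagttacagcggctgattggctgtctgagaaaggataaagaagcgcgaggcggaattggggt
Spdef: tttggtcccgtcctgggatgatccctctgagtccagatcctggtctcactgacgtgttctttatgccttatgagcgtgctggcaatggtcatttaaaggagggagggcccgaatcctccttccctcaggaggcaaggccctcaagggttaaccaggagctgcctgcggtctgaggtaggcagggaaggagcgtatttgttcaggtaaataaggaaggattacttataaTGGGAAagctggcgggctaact
The CAGCTG of Neurog3 begins 165 bases before the start and that of Sox4 211 bases before it. Of the 8 members searched, the third with one is Dll1, in the second of its 2 windows. The TGGGAA of Sox4 begins 100 bases before the start and that of Spdef 22 bases before it. A match describes letters in these windows and does not show binding.

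The files held 13805 and 12399 barcodes in mutant 1 and mutant 2, against 5974 and 12398 in wild type 1 and wild type 2, and 99772712 to 127796409 unique molecular identifiers (UMIs, counted RNA molecules) per library. After filtering, 10002 and 7575 epithelial cells remained in the mutants, against 4247 and 7296 in the wild types, and pairs of libraries shared 7 to 25 cell barcodes. Median UMIs per kept cell were 9424 and 10402 in the mutants, against 20361 and 10843 in the wild types. Cells were clustered without the 10 members and without the 3 gene lists used below, and clusters were named from markers. Mutant 1 stood apart: clusters 4 and 5 held 1788 of its 1794 cycling-like and 1522 of its 1657 stem-like cells, whereas clusters 16 and 19 held most of these classes in the other 3 libraries. Crypt cells, taken as every stem-like or cycling-like cell, numbered 3451 and 1913 in the mutants, against 1072 and 2045 in the wild types. All 18 stem markers were detected in the crypt cells of every library, and in all epithelial cells the 7 endothelial markers summed to 4.31 to 6.78 CPM (UMIs of a gene per 1000000 UMIs of the cells summed), with at least 5 of them detected in every library. The 14 T cell markers summed to 3.32 to 7.71 CPM, with at least 13 detected. The 6 erythroid markers moved with genotype, at 25.9 and 17.4 CPM in the mutants, against 3.67 and 1.84 CPM in the wild types.

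Levels of these genes differed between some classes of the crypt and villus. Levels are CPM of the summed UMIs of a class in a library, given as the mean over libraries with its range, and 12 classes or unnamed clusters with at least 20 cells in 2 or more libraries are compared. The members took no part in the clustering, but other genes of the same programmes did, and clusters were named from markers such as Muc2. Members that vary with such genes can follow the class names, so these levels are not independent of the classes. No test was made between classes, and classes are said to differ only where their ranges over libraries did not overlap.

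Notch1, the receptor (chr2:26457903-26516663, mm10), was highest in stem-like cells at 43.9 CPM (38.4 to 48.9), and its range there lay above that of cycling-like cells at 27.9 CPM (25.9 to 31.1). Cycling-like and tuft-like cells (25.3 CPM, 16.2 to 33.9) did not differ beyond their spread. Enterocyte-like cells averaged 1.455 CPM. Stem-like and cycling-like cells held most of its molecules, with 35.0% to 50.3% and 29.1% to 38.5% of the Notch1 UMIs of a library. The 3 genes whose log2(CPM + 1) was most like that of Notch1 over the 12 classes were Nme4 (Pearson r = 0.966), Twnk (0.934) and Clic6 (0.932), where the 12 points share the same 4 libraries.

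Hes1, the Notch target that represses Atoh1 (chr16:30064384-30067796), had its highest levels in the same classes. Its mean was 164 CPM in stem-like cells (150.1 to 175.0), above the range of cycling-like cells at 117 CPM (105.5 to 126.4). The unnamed cluster 15, at 102.5 CPM over 3 libraries without mutant 1, overlapped the cycling-like range. Goblet-like cells averaged 39.0 CPM, and enteroendocrine-like cells were lowest at 13.45 CPM. The most similar genes were Cps1 (r = 0.969), Impa2 (0.968) and Tfrc (0.948).

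The ligands were high in part of the secretory classes, and not in Paneth-like cells. Dll1 (chr17:15367354-15376872) was highest in goblet-like cells at 115.8 CPM (77.1 to 154.6), a range above that of every other class, followed by enteroendocrine-like cells at 33.0 CPM and tuft-like cells at 29.9 CPM, which overlapped. Dll4 (chr2:119325784-119335962) was at 30.4 CPM in enteroendocrine-like cells (21.6 to 39.9), 29.5 CPM in goblet-like cells (24.3 to 35.8), 22.5 CPM in the unnamed cluster 23 and 20.9 CPM in tuft-like cells, with overlapping ranges. Stem-like cells had 13.2 CPM of Dll1 and 3.12 CPM of Dll4. Paneth-like cells had 7.13 CPM of Dll1 and 4.83 CPM of Dll4, against 15.9 and 6.84 CPM in enterocyte-like cells, with overlapping ranges for both genes. The Dll4 range of Paneth-like cells (2.78 to 7.592) lay below those of goblet-like, enteroendocrine-like and tuft-like cells. It lay above that of cycling-like cells (1.323 to 2.587) and overlapped that of stem-like cells. For Dll1 the Paneth-like range overlapped those of stem-like and cycling-like cells. The genes most like Dll1 were Tmem229b (r = 0.900), Nfkb2 (0.884) and Rasd2 (0.879), and those most like Dll4 were Dusp1 (0.966), Srgap1 (0.954) and Hepacam2 (0.951).

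Atoh1, the factor that starts the secretory programme (chr6:64729125-64731245), reached 299 CPM in goblet-like cells (263.9 to 333.5), above the range of every other class. The unnamed cluster 15 followed at 61.6 CPM, with libraries from 4.58 to 171.5, and overlapped Paneth-like cells at 45.05 CPM (36.7 to 54.1). Cluster 15 is a mean over 3 libraries, as mutant 1 had 11 cells there and was left out. Mutant 2 was at 4.585 CPM there, and the wild types averaged 90.13 CPM with an SD of 115. Goblet-like cells held 78.3% to 91.3% of its UMIs. In several classes the Atoh1 level went with the set and not the genotype. Enterocyte-like cells had 12.6 and 2.85 CPM in the mutants, against 10.95 and 3.225 CPM in the wild types. Both set A libraries were high and both set B libraries low. Goblet-like and Paneth-like cells, which had more Atoh1, showed the same order of sets. The closest genes to Atoh1 were the intestinal mucin Muc2 (r = 0.977), Piwil4 (0.967) and Ccl9 (0.967).

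Gfi1, a repressor that keeps goblet and Paneth cells from the enteroendocrine fate (chr5:107716657-107726036), averaged 30.7 CPM in goblet-like cells (19.2 to 43.8). That range overlapped the unnamed cluster 23 at 15.2 CPM (6.39 to 26.0). Cluster 23 was small and shallow, with 50, 39 and 42 cells in mutant 1, mutant 2 and wild type 2. Wild type 1, with 13 cells, was left out, and the median depth was 0.268 of the library median. The leading genes of cluster 23 include the Paneth gene Lyz1, but none of its top genes by fold was a Paneth marker. Paneth-like cells had 3.797 CPM of Gfi1. Spdef, which drives goblet and Paneth maturation (chr17:27714352-27728955), had 136 CPM in goblet-like cells (113.8 to 183.2) and 110 CPM in cluster 23 (76.7 to 165.5), also overlapping. Creb3l1, a membrane-bound factor that supports the secretory machinery (chr2:91982328-92024502), was at 369 CPM in goblet-like cells (348.1 to 402.2), above enteroendocrine-like cells at 68.5 CPM (62.3 to 76.4). The closest genes were Chrm1 (r = 0.981), Piwil4 (0.979) and Galnt5 (0.976) for Gfi1, Ern2 (0.972), Gpt2 (0.965) and Myof (0.965) for Spdef, and Txndc5 (0.927), Gm1965 (0.927) and Dnajc10 (0.926) for Creb3l1.

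Neurog3, the enteroendocrine commitment factor (chr10:62133090-62134763), was highest in enteroendocrine-like cells, where no library overlapped the next class. Enteroendocrine-like cells averaged 307 CPM (162.8 to 463.7) and held 70.1% to 87.35% of its UMIs, and the next class, goblet-like cells, averaged 5.58 CPM (1.99 to 7.56). Sox4, a factor of progenitors that also acts in the enteroendocrine and tuft lineages (chr13:28948919-28953713), was broader. It had 568 CPM in tuft-like cells, where libraries ranged from 213.2 to 1170, and 553 CPM in enteroendocrine-like cells (445.7 to 712.3). Stem-like cells (198 CPM) lay below the enteroendocrine-like range and above that of cycling-like cells (97.3 CPM). The closest genes were Gm39149 (r = 0.994), Grik4 (0.993) and Slc39a2 (0.991) for Neurog3, and Cbx6 (0.974), Zc3h7b (0.972) and Mcrip1 (0.968) for Sox4.

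**Figure D1:**
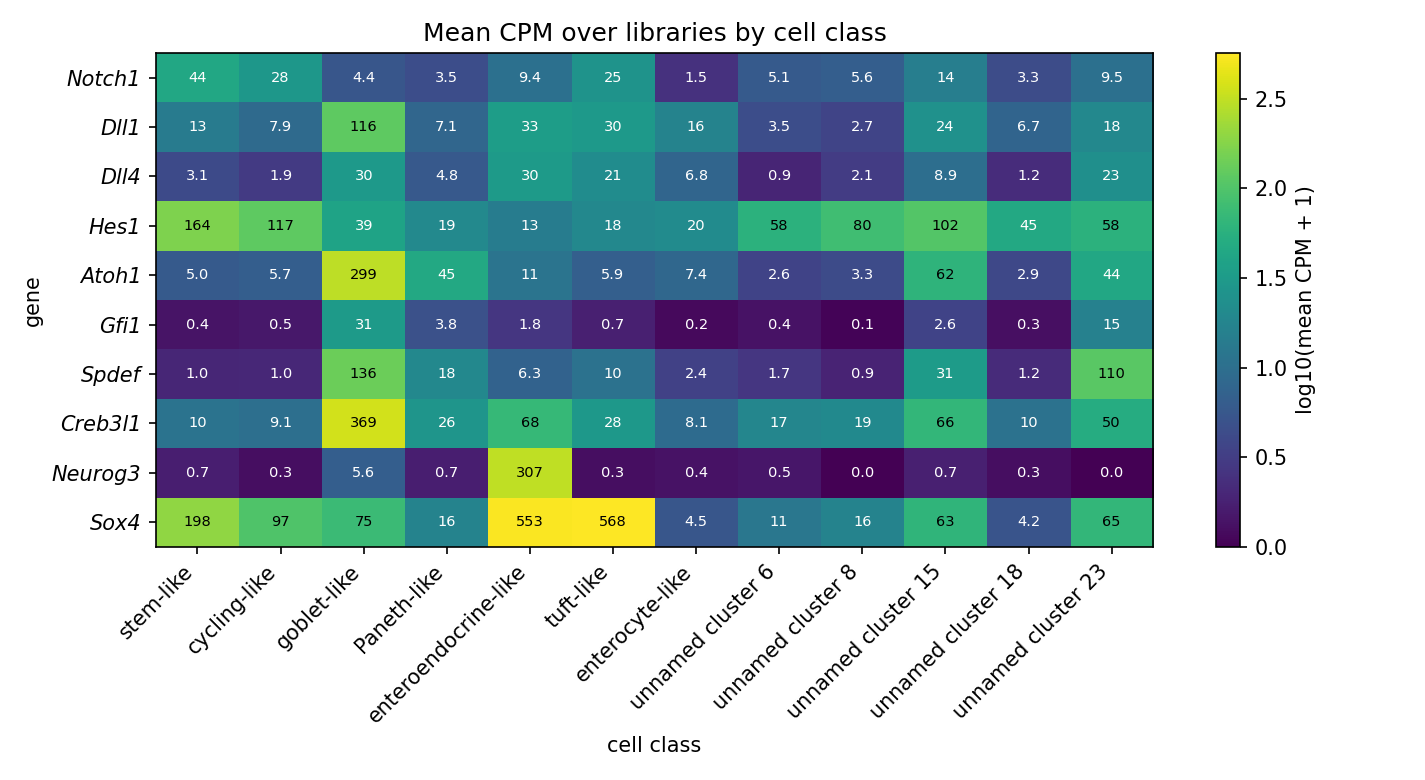
Mean CPM over libraries of each member (rows) in 7 named cell classes and 5 unnamed clusters (columns), with colour on a log10(mean CPM + 1) scale and the mean printed in each cell. Notch1 and Hes1 peak in stem-like cells, Dll1, Atoh1, Gfi1, Spdef and Creb3l1 in goblet-like cells, and Neurog3 in enteroendocrine-like cells at 307 CPM.

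The goblet-like class was itself uneven. Cluster 1, whose top genes by fold were Dll1, Kit, Creb3l1 and Atoh1 although no member was used to cluster, had 194.0 and 106.1 CPM of Dll1 in the mutants, against 180.1 and 153.3 CPM in the wild types. Cluster 17, led by Fcgbp, Muc2, Clca1 and Zg16, had 36.9 and 20.1 CPM of Dll1 in the mutants, against 22.9 and 26.9 CPM in the wild types. Every library thus had more Dll1 in cluster 1 than in cluster 17, and the ranges of the 2 clusters did not overlap within either genotype. Atoh1 did not share this drop, with 221.7 to 277.6 CPM in cluster 1 and 313.8 to 378.4 CPM in cluster 17. Creb3l1 was at 296.7 to 405.9 CPM in cluster 1 and 165.6 to 241.5 CPM in cluster 17. Cluster 0, the largest in every library, had 77.3 to 155 CPM of Dll1, 265.0 to 358.6 CPM of Atoh1 and 402.1 to 438 CPM of Creb3l1. All 3 ranges overlapped cluster 1, and mean Creb3l1 was higher in cluster 0 (420.4 CPM) than in cluster 1 (334.8 CPM).

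Sox4 and Neurog3 within the goblet-like class came from cluster 1. Sox4 had 194.4 and 162.1 CPM there in the mutants, against 178.2 and 337.1 CPM in the wild types, and 7.51 to 20.5 CPM in clusters 0 and 17 of the 4 libraries. Neurog3 had 16.4 and 8.65 CPM in cluster 1 of the mutants, against 33.1 and 19.55 CPM in the wild types, both mutants lying below both wild types. In the whole goblet-like class 12.1% of the genes tested lay below in this way, and the share was not computed for cluster 1. The Neurog3 cells of cluster 1 carried Sox4 more often and Atoh1 less often than the rest of that cluster. With every cell thinned to 5000 UMIs, Sox4 was found in 93.8% and 83.3% of the 16 and 6 Neurog3-positive cells of the mutants, against 75% and 92.9% of the 12 and 14 such cells of the wild types. Cells of cluster 1 without Neurog3 had Sox4 in 29.1% and 35.0% in the mutants, against 23.0% and 42.2% in the wild types. Atoh1 was found in 18.8% and 16.7% of the Neurog3-positive cells in the mutants, against 25% and 21.4% in the wild types. Among Neurog3-negative cells the shares with Atoh1 were 67.1% and 61.5% in the mutants, against 69.05% and 58.7% in the wild types. These shares describe cells of the same 4 libraries and were not tested.

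Enteroendocrine-like cells fell into cluster 2, led by Kcnb2, Cacna1a and Ptprn2 and with hormone genes such as Gip, Gcg and Sst among its top genes by fold, and cluster 3, led by Chgb, Lmx1a, Chga and the serotonin-synthesis gene Tph1. Neurog3 in cluster 2 was at 200.9 and 323.5 CPM in the mutants, against 369.6 and 557.8 CPM in the wild types. In cluster 3 it was at 24.3 and 48.9 CPM in the mutants, against 45.1 and 73.7 CPM in the wild types. Cluster 2 was above cluster 3 in every library. Dll1 followed the same order, with 36.3 to 44.1 CPM in cluster 2 and 0 to 10.4 CPM in cluster 3 over the 4 libraries.

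**Figure D2:**
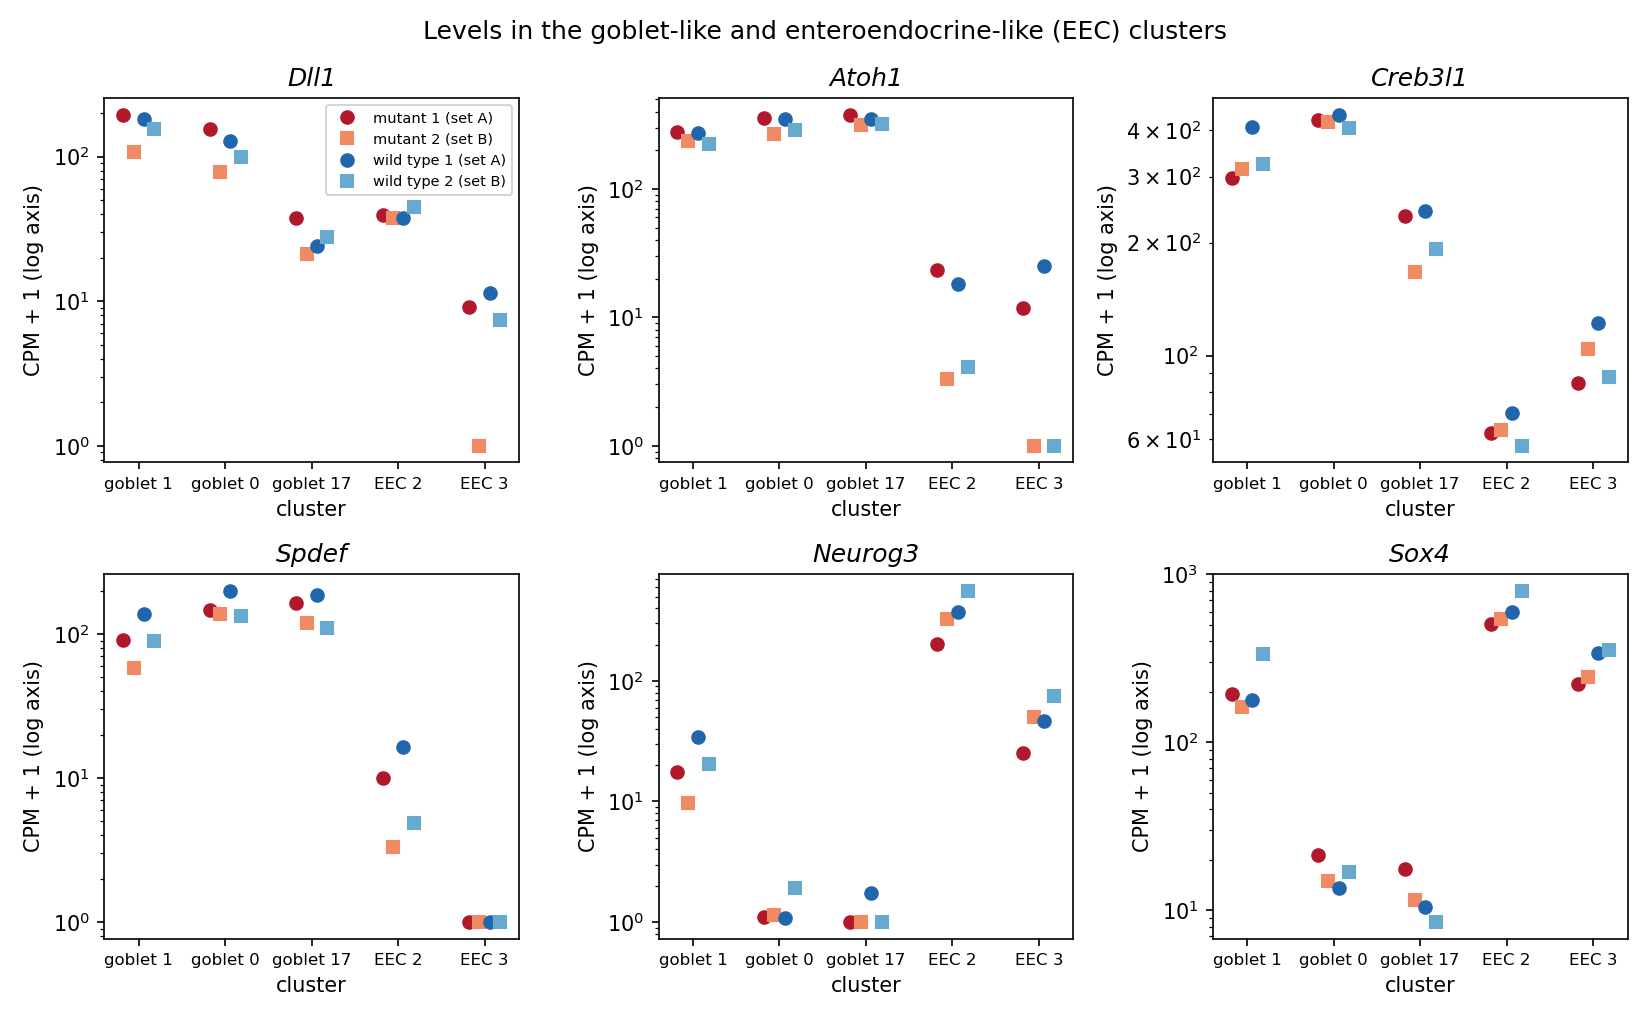
CPM + 1 on a log axis of 6 members in 3 goblet-like and 2 enteroendocrine-like (EEC) clusters, 1 point per library, with circles for set A and squares for set B. Dll1 and Sox4 are higher in goblet-like cluster 1 than in cluster 17 in every library, and Neurog3 is highest in enteroendocrine-like cluster 2.

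Over all epithelial cells thinned to 5000 UMIs, cells with Atoh1 carried the receptor and target less often than cells without it. Hes1 was found in 19.9% and 12.01% of Atoh1-positive cells of the mutants, against 17.4% and 16.0% of those of the wild types. Among Atoh1-negative cells the shares with Hes1 were 36.3% and 27.6% in the mutants, against 29.1% and 28.8% in the wild types. Notch1 was found in 1.40% to 2.89% of Atoh1-positive cells and in 7.83% to 9.95% of Atoh1-negative cells of the 4 libraries. Sox4 was found in 81.8% to 94.4% of Neurog3-positive cells and in 20.5% to 24.65% of Neurog3-negative ones. Within crypt cells the order was mixed. Notch1 was in 8% and 12.5% of Atoh1-positive crypt cells of the mutants, against 26.7% and 19.05% in the wild types. These shares rest on few cells, 6 of 75 and 4 of 32 in the mutants, against 8 of 30 and 8 of 42 in the wild types. Atoh1-negative crypt cells had Notch1 in 13.5% and 16.2% in the mutants, against 16.8% and 18.7% in the wild types. Hes1 was more frequent with Atoh1 in mutant 1 only (49.3% against 46.3% without it). In goblet-like cluster 1 both genes were less frequent with Atoh1 in every library. Goblet-like cells held most Atoh1 UMIs, and the part of cell class in these shares was not tested.

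Atoh1 UMIs were found in a low share of crypt cells. At 5000 UMIs per cell, Atoh1 was found in 2.64% and 1.78% of mutant crypt cells, against 2.985% and 2.149% of wild type crypt cells. Among enterocyte-like cells, a differentiated absorptive class, the shares were 4.41% and 1.66% in the mutants, against 3.67% and 1.19% in the wild types, above the crypt share in set A and below it in set B. Median depths before thinning were 11071 and 13481 UMIs in mutant crypt cells and 2035 and 3264.5 UMIs in mutant enterocyte-like cells, against 25545 and 14503 UMIs in wild type crypt cells and 3513 and 2810 UMIs in wild type enterocyte-like cells. Whether free RNA gave these UMIs was not tested. Dll1 was found in 28% and 12.5% of the 75 and 32 Atoh1-positive crypt cells of the mutants, against 23.3% and 7.14% of the 30 and 42 of the wild types. Atoh1-negative crypt cells had Dll1 in 5.42% and 3.35% in the mutants, against 4.51% and 2.88% in the wild types. The share was higher among Atoh1-positive cells in all 4 libraries, on 3 to 21 cells with both genes.

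Between genotypes, the clearest difference was in Neurog3. Over all epithelial cells it had 398 and 332 UMIs in mutant 1 and mutant 2, which is 3.999 and 3.615 CPM, against 846 and 893 UMIs in wild type 1 and wild type 2, which is 9.83 and 10.02 CPM. Both mutants lay well below both wild types, with group means of 3.81 ± 0.271 CPM in mutants and 9.925 ± 0.140 CPM in wild types (SD, n = 2 each). The log2 ratio of mutant over wild type was -1.27 (SE 0.20), and it was -1.20 within set A and -1.34 within set B.

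In edgeR's quasi-likelihood test without a term for the set, Neurog3 had an unadjusted p of 0.00121 and a Benjamini-Hochberg adjusted p of 1.00, and none of the 10 members was called at an adjusted p under 0.05. No gene at all was called in that fit, 0 of 16700 (0%), with 114 at an unadjusted p under 0.05. With the set as a replicate block, Neurog3 was the only member called (edgeR, adjusted p = 0.00873), among 27 genes or 0.162% of those tested, and DESeq2 without the set called it too (adjusted p = 0.00333) among 9 genes. Neurog3 and Sox4, 2 of 10 members, had both mutants below both wild types in CPM, against 20.4% of all genes tested, and 0 had both above, against 2.68%; 2 of 10 is a share at that background.

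Fewer Neurog3 cells and fewer Neurog3 UMIs per cell cannot be told apart in such sums, so cells were counted. At 5000 UMIs per cell, Neurog3 was found in 66 of 7183 and 36 of 5305 mutant epithelial cells, which is 0.919% (95% exact binomial interval 0.711 to 1.17) and 0.679% (0.476 to 0.938). In wild types it was found in 47 of 3162 and 91 of 5025 cells, which is 1.49% (1.09 to 1.97) and 1.81% (1.46 to 2.22). Both mutant shares were below both wild type shares, and the exact two-sided permutation test gave p = 0.3333, the smallest that 2 libraries against 2 can give. Intervals cover counting error only. Cells under 5000 UMIs were left out, and enteroendocrine-like cells, which held most Neurog3 UMIs, differed in depth between libraries. Their median before thinning was 4761.5 and 8288 UMIs in the mutants, against 12888.5 and 8816 UMIs in the wild types. Enterocyte-like cells, which should lack Neurog3, had it in 0 of 295 and 0 of 602 mutant cells, against 0 of 218 and 2 of 505 wild type cells. Without thinning, cells with at least 5 Neurog3 UMIs numbered 34 of 10002 and 25 of 7575 in the mutants, against 39 of 4247 and 58 of 7296 in the wild types.

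The number of enteroendocrine-like cells moved with this result in part. They made up 3.14% and 1.65% of mutant epithelial cells, against 3.72% and 2.43% of wild type epithelial cells, shares that overlap between genotypes but are lower in the mutant of each set. The 22 enteroendocrine markers, all detected in every library, summed to 1438 and 999 CPM in all mutant epithelial cells, against 2464 and 1299 CPM in wild type ones. Inside the enteroendocrine-like class, Neurog3 was at 162.8 and 275.5 CPM in the mutants, against 325.2 and 463.7 CPM in the wild types. Both mutants again lay below both wild types, the log2 ratio was -0.87 (SE 0.31), and edgeR's unadjusted p was 0.0233 with an adjusted p of 1.00. The share of enteroendocrine-like cells with Neurog3 at 5000 UMIs overlapped between genotypes, at 27.0% and 24.0% in the mutants, against 25.2% and 36.4% in the wild types. The median depth of this class in mutant 1, 4761.5 UMIs, was under the 5000 UMIs a cell needed to be counted. How far the number of cells accounts for the difference was not tested.

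Neurod1, which acts directly after Neurog3 in this lineage, was the single gene among the 29 other secretory fate factors that was called in either edgeR fit. Over all epithelial cells it was at 6.89 and 8.22 CPM in the mutants, against 13.1 and 16.98 CPM in the wild types, without overlap. Its log2 ratio was -0.88 (SE 0.27), and edgeR with the set as a block gave an adjusted p of 0.0421. Inside the enteroendocrine-like class its groups overlapped, at 378.6 and 675.4 CPM in the mutants, against 514.1 and 899.3 CPM in the wild types. Of the 29 factors, 0 were called without the set, 18 were lower in the mutant of both sets and 1 was higher in both, with a median log2 ratio of -0.24. Over all 16700 genes, 25.6% were lower in both sets, 24.4% were higher in both, and the median was -0.00338. This list holds many enteroendocrine genes and was chosen with earlier results of these data known.

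**Figure D3:**
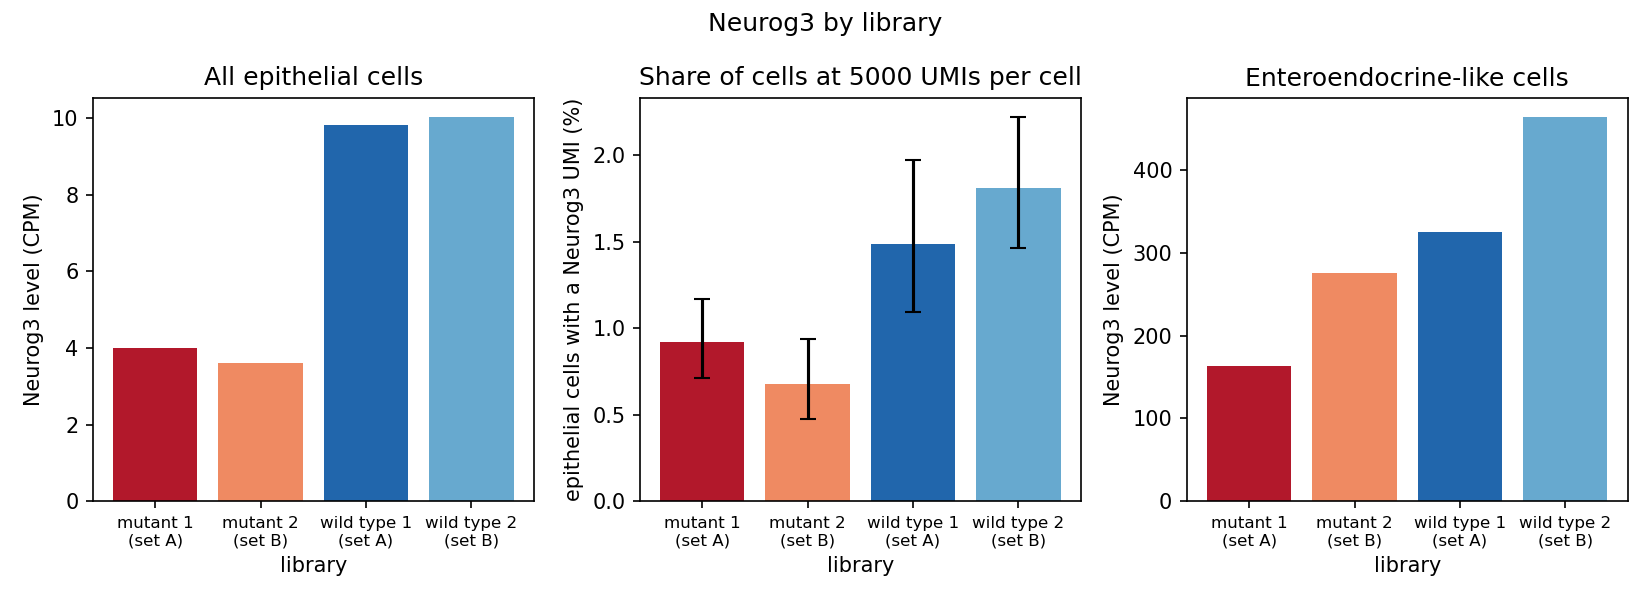
Neurog3 by library: CPM in all epithelial cells (left), the share of epithelial cells with a Neurog3 UMI at 5000 UMIs per cell with 95% exact binomial intervals (middle), and CPM in enteroendocrine-like cells (right). The mutants are at 3.999 and 3.615 CPM over all epithelial cells, below the wild types at 9.83 and 10.02 CPM.

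The other 9 members did not pass the test in all epithelial cells under any of these fits. Sox4 was at 82.5 and 58.6 CPM in the mutants, against 92.2 and 91.8 CPM in the wild types (log2 ratio -0.28, SE 0.18). Spdef was at 24.9 and 15.5 CPM in the mutants, against 43.1 and 19.1 CPM in the wild types (-0.50, SE 0.38), and Gfi1 at 6.64 and 2.70 CPM in the mutants, against 10.3 and 3.92 CPM in the wild types (-0.50, SE 0.55). For both genes the set A libraries were above the set B library of the same genotype, and the groups overlapped. The goblet-like class, which held most of these UMIs, made up 19.7% and 11.7% of mutant epithelial cells, against 23.4% and 13.5% of wild type epithelial cells. Creb3l1 (-0.24), Atoh1 (-0.18), Dll1 (-0.09), Dll4 (-0.08), Notch1 (-0.05) and Hes1 (0.17) had log2 ratios within 1 SE of 0. The median over the 10 members was -0.21.

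In crypt cells the receptor and Sox4 were lower in mutants by small amounts that did not pass the test. Notch1 was at 31.1 and 33.1 CPM in mutant crypt cells, against 37.5 and 39.8 CPM in wild type ones. Both mutants were below both wild types, and the log2 ratio was -0.20 (SE 0.15, edgeR unadjusted p = 0.245). Sox4 was at 125.7 and 131.8 CPM in the mutants, against 167.1 and 152.9 CPM in the wild types, again without overlap (-0.24, SE 0.14, edgeR unadjusted p = 0.140). Clustered more coarsely (Leiden resolution 0.5), 173 cells of mutant 1 were named as crypt, and the log2 ratios turned to 0.20 for Notch1 and 0.01 for Sox4. Neurog3 was the third member without overlap, on 15 and 11 UMIs in the mutants, against 13 and 18 UMIs in the wild types.

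Hes1, the Notch target, overlapped between genotypes in crypt cells. It was at 144.4 and 132.9 CPM in mutant crypt cells, against 135.1 and 142.2 CPM in wild type ones, with means of 138.6 ± 8.12 CPM in mutants and 138.7 ± 4.995 CPM in wild types (SD, n = 2 each) and a log2 ratio of 0.07 (SE 0.14). Of the 10 members, 3 had both mutants below both wild types in crypt cells, against 18.6% of the 14259 genes tested, and none had both above, against 4.53%. In edgeR 0 of 14259 genes (0%) were called without the set, with 75 at an unadjusted p under 0.05. With the set as a block 31 genes (0.217%) were called, none of them a member, and DESeq2 called 0.

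Shares of cells gave the same order for Notch1 and Sox4. At 5000 UMIs per cell, Notch1 was found in 13.3% and 16.1% of mutant crypt cells, against 17.1% and 18.7% of wild type crypt cells, and in at most 1.36% of enterocyte-like cells in any library. Sox4 was found in 40.7% and 44.5% of mutant crypt cells, against 50.45% and 46.5% of wild type crypt cells. For both genes the mutants were below the wild types, with an exact two-sided permutation p = 0.3333, the smallest possible here. Hes1 was found in 46.4% and 44.6% of mutant crypt cells, against 43.3% and 45.3% of wild type crypt cells, which overlapped (exact permutation p = 0.6667). Dll1 was found in 6.02% and 3.51% of mutant crypt cells, against 5.08% and 2.97% of wild type crypt cells. The enterocyte-like shares of Dll1 were 8.81% and 4.32% in the mutants, against 5.50% and 6.73% in the wild types, each above the crypt share of its library. Enterocyte-like cells were the shallower class, and the part of free RNA in either share was not tested. By level, Dll1 averaged 13.2 CPM in stem-like cells (7.57 to 19.4), above the ranges of unnamed clusters 6 (2.30 to 5.12) and 8 (0 to 4.96). The stem-like range overlapped those of the other classes, except the higher goblet-like and enteroendocrine-like ranges. Enterocyte-like cells averaged 15.9 CPM of Dll1 (9.93 to 21.3) and unnamed cluster 18 averaged 6.69 CPM (4.29 to 8.54). The number of crypt cells under 5000 UMIs, left out of these shares, was 608 and 117 in the mutants, against 67 and 91 in the wild types.

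**Figure D4:**
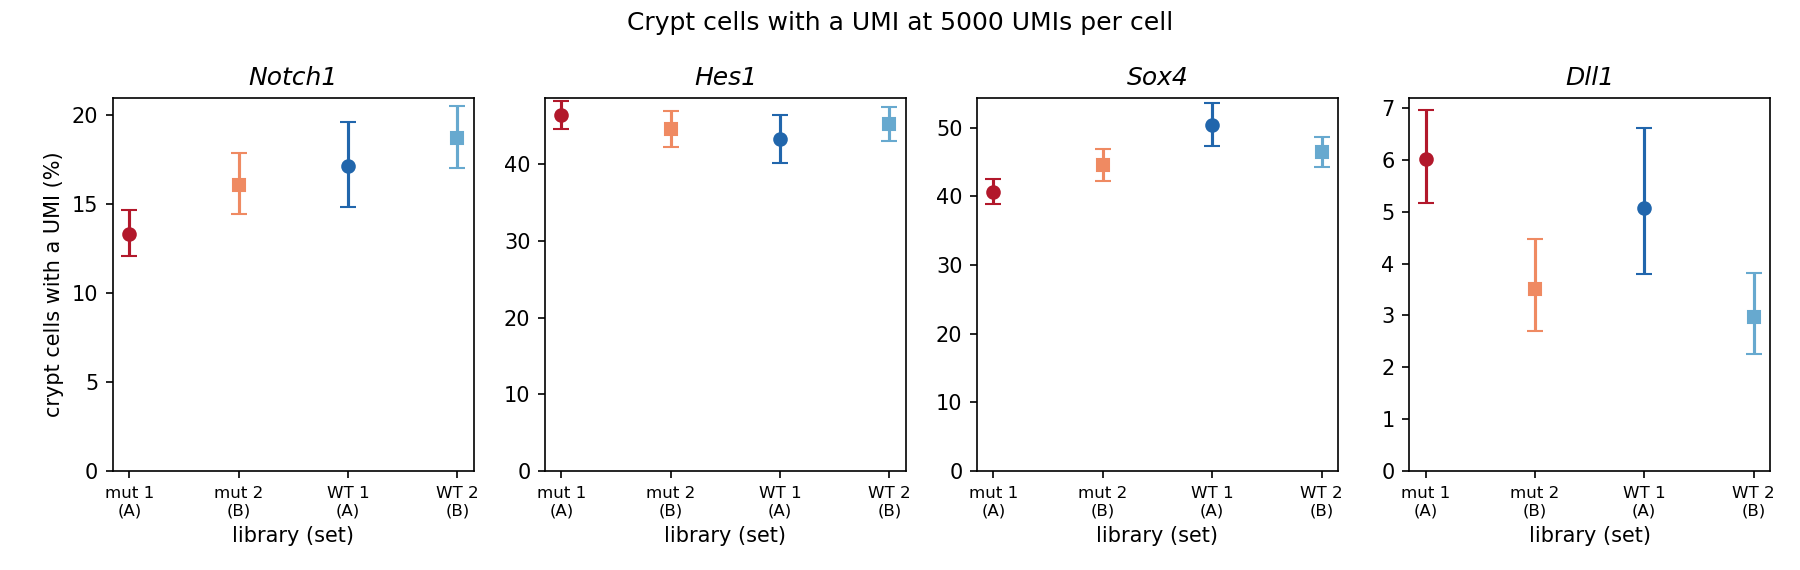
Share of crypt cells with a UMI of Notch1, Hes1, Sox4 and Dll1 in each library at 5000 UMIs per cell, with 95% exact binomial intervals; circles are set A and squares set B. Notch1 and Sox4 are lower in both mutants, Hes1 overlaps, and Dll1 is higher in set A than in set B in both genotypes.

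Within stem-like cells, Notch1 was at 39.95 and 38.4 CPM in the mutants, against 48.9 and 48.4 CPM in the wild types, and Sox4 at 184.3 and 171.5 CPM in the mutants, against 231.2 and 204.4 CPM in the wild types. These were the 2 of 9 tested members whose mutants lay below both wild types, close to the 19.6% of all 13268 genes tested there, and none lay above, against 6.54%. Neither was called (log2 ratios -0.24, SE 0.14, and -0.22, SE 0.14). Dll1 had 282 and 149 UMIs in mutant stem-like cells, 19.4 and 10.5 CPM, against 208 and 121 UMIs or 15.3 and 7.57 CPM in the wild types. It was higher in the mutant of each set, but the groups overlapped and the log2 ratio of 0.47 had an SE of 0.40. No gene was called in stem-like cells by edgeR without the set (0 of 13268, 0%, with 98 at an unadjusted p under 0.05), and none of the 20 called with it (0.151%) or the 2 called by DESeq2 was a member. At the coarser clustering the log2 ratio of Notch1 was 0.02. Most stem-like cells of mutant 1 lay in another cluster than those of the other libraries, so values of this class compare different clusters.

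**Figure D5:**
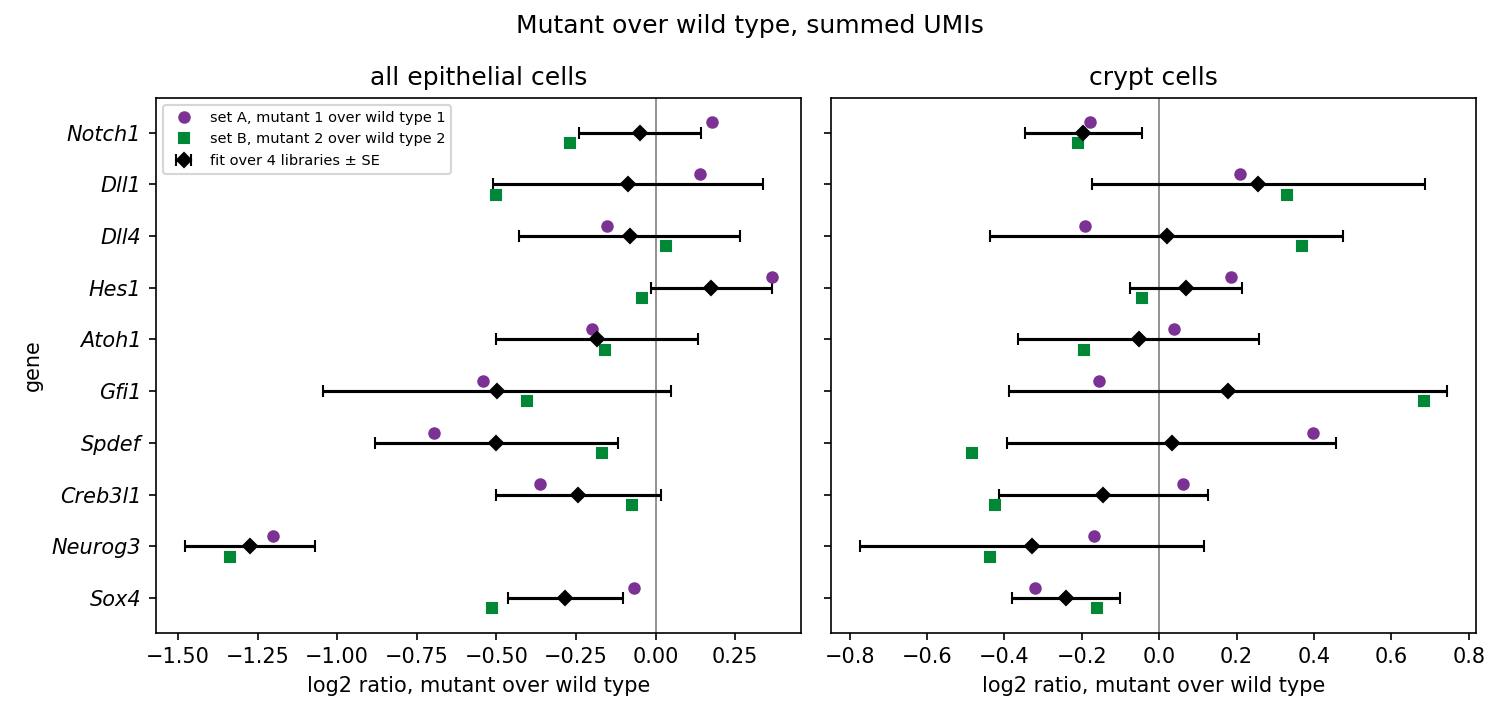
Log2 ratio of mutant over wild type for each member in all epithelial cells (left) and crypt cells (right): diamonds are the edgeR estimate over 4 libraries with its SE, circles the ratio within set A and squares that within set B. Neurog3 in all epithelial cells is the member farthest from 0, at -1.27, and its 2 sets are at -1.20 and -1.34.

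In enteroendocrine-like cells several members separated by genotype in CPM, and most of these overlapped in shares of cells at equal depth. Of the 9 members tested there, Dll1, Dll4, Neurog3 and Sox4 had both mutants below both wild types, against 12.8% of 10875 genes, and Notch1 and Hes1 had both mutants above both wild types, against 14.3%. Sox4 was at 445.7 and 488.3 CPM in the mutants, against 564.5 and 712.3 CPM in the wild types (log2 ratio -0.46, SE 0.22). Hes1 was at 18.7 and 16.2 CPM in the mutants, against 9.02 and 9.97 CPM in the wild types, a log2 ratio of 0.87 (SE 0.36) that rested on 32 and 17 UMIs in the mutants and 19 and 16 UMIs in the wild types. With the automatic doublet threshold the ratio of Hes1 was -0.06. At 5000 UMIs per cell Hes1 was found in 3.95% and 5.77% of mutant enteroendocrine-like cells, against 1.63% and 3.25% of wild type ones, with 6.14% to 13.2% in enterocyte-like cells. The shares of Sox4, Dll1, Dll4, Notch1 and Neurog3 at that depth overlapped between genotypes. All these shares leave out cells under 5000 UMIs, and the median depth of this class in mutant 1 was 4761.5 UMIs. Sox4 was found in 59.9% and 61.5% of mutant enteroendocrine-like cells, against 54.5% and 72.7% of wild type ones. Dll1 was found in 13.2% and 7.69% of mutant cells, against 11.4% and 14.9% of wild type cells. Dll4 was found in 10.5% and 15.4% of mutant cells, against 16.3% and 11.7% of wild type cells. Notch1 had 20 and 15 UMIs in the mutants, against 6 and 14 UMIs in the wild types, and was found in 6.58% and 1.92% of mutant cells, against 2.44% and 3.90% of wild type cells. The summed cycling, Paneth and goblet markers did not overlap between genotypes in these cells and the endothelial markers did, and their part in these values was not tested. The 24 cycling markers summed to 516.3 and 331.5 CPM in the mutants, against 123.0 and 295.4 CPM in the wild types. The 15 Paneth markers summed to 5122 and 7073 CPM in the mutants, against 1893 and 4721 CPM in the wild types, and the 15 goblet markers to 3614 and 3520 CPM in the mutants, against 5354 and 4760 CPM in the wild types. The 7 endothelial markers summed to 74.1 and 37.05 CPM in mutant enteroendocrine-like cells, against 37.5 and 36.1 CPM in wild type ones. No member and no gene was called by edgeR without the set (0 of 10875, 0%, with 214 at an unadjusted p under 0.05), with the set as a block (0%) or by DESeq2, and edgeR's unadjusted p was 0.042 for Hes1 and 0.0642 for Sox4.

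In goblet-like cells, which held most Dll1 UMIs, no member was called. Atoh1 was at 333.5 and 263.9 CPM in the mutants, against 330.4 and 269.5 CPM in the wild types, and Creb3l1 at 358.9 and 366.4 CPM in the mutants, against 402.2 and 348.1 CPM in the wild types. Dll1 was at 154.6 and 77.1 CPM in the mutants, against 123.9 and 107.5 CPM in the wild types, with the mutants on either side. Neurog3 alone of the 10 members had both mutants below both wild types (5.60 and 1.99 CPM in mutants, 7.56 and 7.155 CPM in wild types), against 12.1% of the 13034 genes tested, and none had both above, against 8.62%. No gene was called in this class by edgeR without the set, with it (0% each) or by DESeq2, and 111 genes had an unadjusted p under 0.05 without it.

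In the remaining classes no member was called either. Paneth-like cells had Atoh1 at 54.1 and 37.4 CPM in the mutants, against 52.0 and 36.7 CPM in the wild types, and 0 of 9 tested members separated by genotype, against 13.1% of genes below and 3.34% above. This class had 298 and 267 cells in the mutants, against 48 and 313 in the wild types. Of the 48 cells of wild type 1, 38 lay in cluster 24, which held no other library, so values of this class compare different clusters. Without the set edgeR called 0 of 10912 genes (0%), with 105 at an unadjusted p under 0.05, with the set it called 3 (0.0275%), none a member, and DESeq2 called 0. Cycling-like cells had 1 of 8 tested members below in both mutants, Sox4, against 15.7% of 12921 genes, and 0 above, against 5.89%. There edgeR called 0 genes (0%) without the set, with 80 at an unadjusted p under 0.05, DESeq2 called 0, and 100 genes (0.774%) were called with the set, none a member. In tuft-like cells Sox4 was at 674.7 and 213.4 CPM in the mutants, against 1170 and 213.2 CPM in the wild types, so set A was high and set B low in both genotypes, on 30 to 111 cells per library. In tuft-like cells 0 of 6 and in enterocyte-like cells 0 of 8 tested members separated by genotype, against 13.8% of genes below in both classes, and 10.8% and 8.53% above.

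Other genes of the pathway were read from the same fits. Of 43 further Notch pathway genes, 34 could be tested in crypt cells, 0 were called in either direction with or without the set, 9 were lower and 7 higher in the mutant of both sets, and the median log2 ratio was -0.02. Over all 14259 genes 25.7% were lower and 26.5% higher in both sets. The genes with the smallest p were Spen, a corepressor of RBPJ (log2 ratio -0.22, SE 0.14), Ncstn, a part of the gamma-secretase that frees the receptor fragment (0.35, SE 0.26), Hes5, a target (-0.55, SE 0.42), and Dtx2 (-0.36, SE 0.30).

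Of the 29 secretory fate factors, 21 were tested in crypt cells, 0 were called with or without the set, 6 were lower and 4 higher in both sets, and the median was -0.04. Those with the smallest p were Runx1t1 (1.07, SE 0.53), Neurod1 (-0.78, SE 0.44), Foxa3, a forkhead factor (-0.25, SE 0.15), and Sox9, a factor of stem and Paneth cells (-0.32, SE 0.19). Of the 20 absorptive fate factors, all 20 were tested, 0 were called, 5 were lower and 8 higher in both sets, and the median was 0.02. Among those with the smallest p were Ppara, a fatty acid sensor (-0.31, SE 0.17), Prdm1, a repressor known from the neonatal intestine (0.69, SE 0.51), and Tcf7l2, a Wnt effector (0.14, SE 0.15). The smallest adjusted p of edgeR among the genes named from these lists was 1.00.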

How the data were processed

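Whole-number UMI counts per gene and barcode were deposited by the authors for 4 libraries made with the 10x 3' v3.1 kit. They were made, per the file headers, with Cell Ranger 7.0.0 in set A and 7.1.0 in set B; the submitters' processing notes name the build mm10. A barcode was kept if it had 500 or more genes, 1000 or more UMIs and a mitochondrial share below 30%. Scrublet doublets were removed at 0.8% per 1000 barcodes, a rate chosen after its automatic threshold had marked 15.0%, 0%, 0.151% and 0.00807% of barcodes in mutant 1, mutant 2, wild type 1 and wild type 2. Cells were clustered with scanpy 1.11.5 (2000 variable genes, 50 components, 15 neighbours, Leiden resolution 1), without the members and the list genes. A cluster was named from at least 3 markers among its 50 leading genes, and a lymphocyte cluster was removed.

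UMIs were summed per library and class. Mutant and wild type were compared with edgeR 4.0.16 (quasi-likelihood, TMM, filterByExpr, Benjamini-Hochberg adjustment over all genes tested, called at an adjusted p under 0.05) in R 4.3.3. The set was left out of the main model and entered as a replicate block in an alternative. DESeq2 1.42.0 was another alternative, and so were RLE scaling, no filter on low counts, a 15% mitochondrial limit, the automatic doublet threshold, Leiden resolution 0.5, thinning to 2000 UMIs or none, and leaving out each library. The scripts were tested on simulated data. The labels do not say that the sets are pairs. The set B minus set A differences of mutants and wild types correlated across genes at r = 0.201 (enteroendocrine-like) to 0.623 (all epithelial cells), with 2 sets only. Summed UMIs were 86093472 to 99535543 per library over epithelial cells and 27607656 to 39313244 over crypt cells. All 10 members are named, of each list the genes called and the 4 with the smallest p in crypt cells, and for each member the 3 genes most alike. One gene that this rule names is not reported here. The members and lists were chosen with earlier results of these data known.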

Additional observations from a re-analysis of the deposited data

Results flagged for a closer look

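For 3 members the log2 ratios within the sets had one sign in 1 class and the opposite sign in another, in both sets, and some of these ratios were close to 0. Atoh1 had log2 ratios of mutant over wild type of 0.0566 within set A and 0.0273 within set B in Paneth-like cells, and of -0.393 within set A and -0.251 within set B in cycling-like cells. Dll1 had 0.343 in set A and 0.468 in set B in stem-like cells, and -0.0303 in set A and -0.274 in set B in enteroendocrine-like cells. Gfi1 had 0.0127 in set A and 0.234 in set B in Paneth-like cells, and -0.338 in set A and -0.395 in set B in goblet-like cells. The Paneth-like ratios of set A rest on 48 cells of wild type 1, 38 of them in cluster 24, which held no other library. The differences between classes were not tested, and the share of all genes that meet this sign rule was not computed. None of these members was called in any of these classes by edgeR, with or without the set, or by DESeq2.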

How the results depend on the processing

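Counts of called genes depended on the model. With the set as a replicate block edgeR called 27 genes in all epithelial cells, 31 in crypt, 20 in stem-like, 100 in cycling-like, 3 in Paneth-like and 40 in enterocyte-like cells, against 0 in each without it, and it called 1 member (Neurog3 in all epithelial cells). DESeq2 called 9 genes in all epithelial cells, 1 of them a member, and 2 in stem-like cells. Without the filter on low counts 29 genes were called in goblet-like, 12 in Paneth-like, 36 in enteroendocrine-like, 8 in tuft-like and 15 in enterocyte-like cells. Leaving out 1 library at a time gave 0 to 48 genes in stem-like, 0 to 40 in cycling-like, 0 to 1 in goblet-like, 0 to 9 in Paneth-like, 0 to 55 in enteroendocrine-like, 0 to 9 in tuft-like and 1 to 23 in enterocyte-like cells; without wild type 1, 1 member (Neurog3) was called in enteroendocrine-like cells. A lone library was then assumed to vary like the other genotype. Of the 10 members, 6 had a lower mean share of crypt cells with a UMI in mutants; unthinned it was 10, and leaving out a library gave 3 to 6. The Neurog3 log2 ratio in all epithelial cells was -1.35 to -1.17 with each library left out and -1.07 with the automatic doublet threshold. Log2 ratios that changed sign when a library was left out ran, in all epithelial cells, from -0.53 to 0.20 for Atoh1, -0.80 to 0.39 for Dll1, -0.40 to 0.36 for Dll4, -0.18 to 0.10 for Notch1, -0.0319 to 0.36 for Hes1, -0.91 to 0.11 for Spdef, -1.16 to 0.27 for Gfi1 and -0.50 to 0.10 for Creb3l1. In crypt cells they ran from -0.41 to 0.23 for Atoh1, -0.26 to 0.85 for Dll1, -0.43 to 0.68 for Dll4, -0.00342 to 0.15 for Hes1, -0.47 to 0.38 for Spdef, -0.32 to 0.93 for Gfi1 and -0.51 to 0.14 for Creb3l1, and in stem-like cells from -0.0269 to 1.00 for Dll1. At Leiden resolution 0.5 the crypt ratios turned to 0.20 for Notch1, 0.00778 for Sox4, -0.34 for Dll4, -0.97 for Spdef and -0.53 for Gfi1, and Notch1 in stem-like cells to 0.0164; mutant 1 then had 173 named crypt cells. The automatic doublet threshold turned crypt Atoh1 to 0.12, crypt Gfi1 to -0.20 and enteroendocrine-like Hes1 to -0.0589, and the 15% mitochondrial limit turned crypt Dll4 to -0.00973. Other causes were not tested. With 2 libraries per genotype, an exact permutation p cannot go below 0.3333.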

Other observations

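The removed lymphocyte cluster held 61 and 34 cells in the mutants, against 40 and 13 in the wild types. Gfi1, which is also known from lymphocyte development, had 4 and 5 UMIs there in the mutants, against 13 and 3 UMIs in the wild types. That was 35.4 and 44.3 CPM in the mutants, against 80.4 CPM in wild type 1, and wild type 2 had too few cells for a level. Notch1 had 3 and 5 UMIs in the mutants, against 4 and 0 UMIs in the wild types, and Neurog3 had 0 in every library.

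The highest number of Neurog3 UMIs in 1 cell was 19 and 22 in the mutants, against 61 and 40 in the wild types. Cells with at least 5 Neurog3 UMIs held 285 and 295 of the Neurog3 UMIs in the mutants, against 810 and 782 in the wild types. The median in cells with any Neurog3 UMI overlapped, at 3.5 and 4 UMIs in the mutants, against 10 and 2 UMIs in the wild types, without thinning.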
